A study of Mus musculus with 16 samples.

Results

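Macrophages carry receptors in the cytosol that bind foreign or misplaced RNA and DNA. The genes described here are 8 such sensors and adaptors, chosen by gene symbol: Ddx58, Ifih1, Dhx58, Mavs, Eif2ak2, Zbp1, Tmem173 and Aim2. All 8 were among the 23159 symbols of the count table, and all 8 passed the filter on low counts that left 12455 genes for testing. The libraries are poly(A)-selected RNA from macrophages of mouse bronchoalveolar lavage fluid. There were 4 groups of 4 libraries, 16 in all, although the series' design text speaks of 15. WT control and TLR3-KO control mice received saline by the hypopharyngeal route and are labelled as untreated. WT injured and TLR3-KO injured mice were inoculated by that route with 500 CFU of Klebsiella pneumoniae in 30 µl and are labelled as sampled after pneumonia. TLR3-KO mice lack the endosomal receptor for double-stranded RNA, and both TLR3-KO groups carry the deletion. Strain, age and the time after inoculation are not given in the sources used here, and no label says which libraries come from separate mice, so p-values measure only the spread between these libraries.

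RIG-I (Ddx58) and MDA5 (Ifih1) are helicases that bind viral RNA in the cytosol, and LGP2 (Dhx58) is a related helicase that lacks the signalling domains and modulates them. RIG-I and MDA5 signal through MAVS, an adaptor on mitochondria, to the kinases and transcription factors that switch on type I interferon. PKR (Eif2ak2) is a kinase that halts translation when it binds double-stranded RNA, and ZBP1 binds left-handed nucleic acid and can start necroptosis through RIPK3 and MLKL. STING (Tmem173) passes on the signal of the DNA sensor cGAS, and AIM2 binds DNA and assembles an inflammasome with ASC and caspase-1. Several of these genes are themselves induced by interferon, through promoter elements that repeat the letters GAAA. Toll-like receptor 3 detects the same class of RNA as MDA5 and PKR, but from the endosome and through another adaptor.

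The libraries held 29667102 to 59640251 counts. Tlr3 lay between 2.18 and 4.53 CPM (the counts of a gene scaled to the total of its library) in the WT libraries and between 0.274 and 0.717 in the TLR3-KO libraries, so the genotype labels held in all 16. All 12 alveolar macrophage markers were present, with a summed level of 20110 CPM or more in every library. Most of that sum was Chi3l3 (15250 to 21910 CPM), while Fcgr1 was at 6.60 to 24.6 CPM. In the series title the mice are male, yet Xist was at 20.3 to 42.3 CPM in TLR3-KO controls 1 to 3 and at most 0.23 CPM in the other libraries. The Y-linked genes Ddx3y, Eif2s3y, Kdm5d and Uty summed to 0.758, 1.16 and 23.2 CPM in TLR3-KO controls 1 to 3. In the other libraries they summed to 163 to 235 CPM. Comparisons that use the TLR3-KO controls therefore also set libraries that differ in sex-linked RNA against each other. The first principal component (35.0% of the variance) separated controls 1 and 2 of both genotypes from controls 3 and 4. In both genotypes 6 of the 8 genes, Ddx58, Ifih1, Mavs, Eif2ak2, Zbp1 and Tmem173, were higher in both of controls 1 and 2 than in controls 3 and 4, as were 15.0% of all tested genes. The fits were repeated with controls 1 and 2 only, with controls 3 and 4 only, and without the 3 libraries with Xist, which leaves 1 TLR3-KO control. These choices move the background too: in TLR3-KO after pneumonia edgeR called 0.658%, 33.1% and 0.0321% of all tested genes in these 3 settings.

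Promoter letters are shown for the members whose promoter holds the interferon-type repeat, because some of these genes are known to be induced through it. Promoters were 300 bases from RefSeq (GRCm38.p6), from 250 before to 50 after the start of transcription, and 5 of the 8 genes had an entry: Ddx58, Ifih1, Mavs, Eif2ak2 and Aim2. The motif searched was GAAA, any 2 bases and GAAA again, on both strands, so that a match on the other strand reads TTTC, any 2 bases and TTTC. It was found in 3 of these 5 genes, Ddx58, Ifih1 and Eif2ak2, against 3.1% of the 11396 promoters of tested genes and 3.4% of all 32851 promoters. Each line below is a window of 30 bases on the strand of the gene, with the match in capitals, and the lines for Ifit1 and Oas3 show 2 pathway genes that rose after pneumonia, chosen for having a match. Of the 13 pathway genes that rose in the averaged comparison 11 had an entry, and 4 of these 11, Ddx60, Ifit1, Ifit3 and Oas3, had a match.
Ddx58: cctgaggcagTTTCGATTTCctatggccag
Ifih1: gagaagagaatcGAAACAGAAAccgatctg
Eif2ak2: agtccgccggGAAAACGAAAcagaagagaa
Oas3: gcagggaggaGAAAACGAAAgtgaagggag
Ifit1, first: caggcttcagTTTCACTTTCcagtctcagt
Ifit1, second: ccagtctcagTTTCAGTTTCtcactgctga
The windows are chr4:40239804-40239833 (Ddx58), chr2:62646206-62646235 (Ifih1), chr17:78882535-78882564 (Eif2ak2) and chr5:120777715-120777744 (Oas3), all on the minus strand, and chr19:34640775-34640804 and chr19:34640794-34640823 (Ifit1) on the plus strand. Eif2ak2 and Oas3 share the same 10 letters, GAAAACGAAA. In the 3 sensors the match lies after the start of transcription, its first base 3, 33 and 19 bases from it in Ddx58, Ifih1 and Eif2ak2. In Oas3 and Ifit1 it lies before the start, at -75, and at -104 and -85. No match was found in the windows of Mavs and Aim2. A match describes letters and does not show that a factor binds there.

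Zbp1 was the 1 member of 8 that passed edgeR's adjusted threshold after pneumonia in the average over both genotypes. Zbp1 (ENSMUSG00000027514, chromosome 2, 173206612 to 173218923, minus strand) was at 5.95, 6.83, 3.50 and 5.73 CPM in WT controls 1 to 4. In the WT injured libraries it was at 11.7, 14.5, 12.4 and 15.0 CPM. TLR3-KO controls had 5.88, 5.68, 3.39 and 3.33 CPM, and TLR3-KO injured libraries 12.5, 8.25, 8.96 and 19.8 CPM. All 8 injured libraries were above all 8 controls, whatever the genotype. Averaged over both genotypes, Zbp1 was 2.39-fold higher after pneumonia (log2 fold change 1.26, SE 0.21, adjusted p = 0.00939 by edgeR's quasi-likelihood test). Of all tested genes 2.34% passed the adjusted threshold of 0.05 in this averaged comparison, 1.35% of them as higher, and 157 genes (1.26%) had a log2 fold change at least as large. The call held without each library in turn (log2 fold change 1.10 to 1.35, adjusted p 0.00732 to 0.0256). It also held with controls 1 and 2 only (0.94, adjusted p = 0.0166) and with controls 3 and 4 only (1.68, adjusted p = 0.000818). Without the 3 libraries with Xist, which leaves 1 TLR3-KO control, the averaged log2 fold change was 1.54.

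Within TLR3-KO, Zbp1 was called as higher, by 2.56-fold or 1.35 on the log2 scale (SE 0.30, adjusted p = 0.0418 by edgeR). It was the 1 of 8 members called there, where 1.54% of all tested genes were called, 0.899% as higher. Within WT the rise was 2.24-fold (1.16, SE 0.30, adjusted p = 0.197 by edgeR) and did not pass. In WT 0 of the 8 members passed edgeR's adjusted threshold, and 0.0161% of all tested genes did. At an unadjusted p under 0.05 the WT comparison held 2 members, Zbp1 and Dhx58, and 10.7% of all tested genes. DESeq2 called 1 member in WT, Zbp1 (adjusted p = 0.0201), beside 1.45% of all tested genes, and limma voom called 0 members, beside 0.0%. The Zbp1 responses of the genotypes differed by 0.19 on the log2 scale (SE 0.42, adjusted p = 0.805 by edgeR), so neither direction was resolved. The TLR3-KO call sat close to the threshold. It was lost without any 1 of 10 libraries: WT control 2, WT injured 2 and 3, TLR3-KO controls 1, 3 and 4, and each of the TLR3-KO injured libraries (adjusted p 0.0569 to 0.119). In these fits the log2 fold change of Zbp1 was 1.04 to 1.54. Calls fell over all genes too, to 0 to 83 of the 12455 tested, against 192 in the main fit. The call was also lost with only the groups compared (adjusted p = 0.0861), with a replicate block (0.0697) and with controls 1 and 2 only (0.99, adjusted p = 0.128). In these 3 settings 0.289%, 0.0883% and 0.658% of all tested genes were called. Without the libraries with Xist the log2 fold change was 1.93, with 1 TLR3-KO control left. TLR3-KO and WT did not differ in Zbp1 by the test, either in controls (-0.34, SE 0.30, adjusted p = 0.541) or after pneumonia (-0.14, SE 0.29, adjusted p = 0.830, edgeR).

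**Figure D1:**
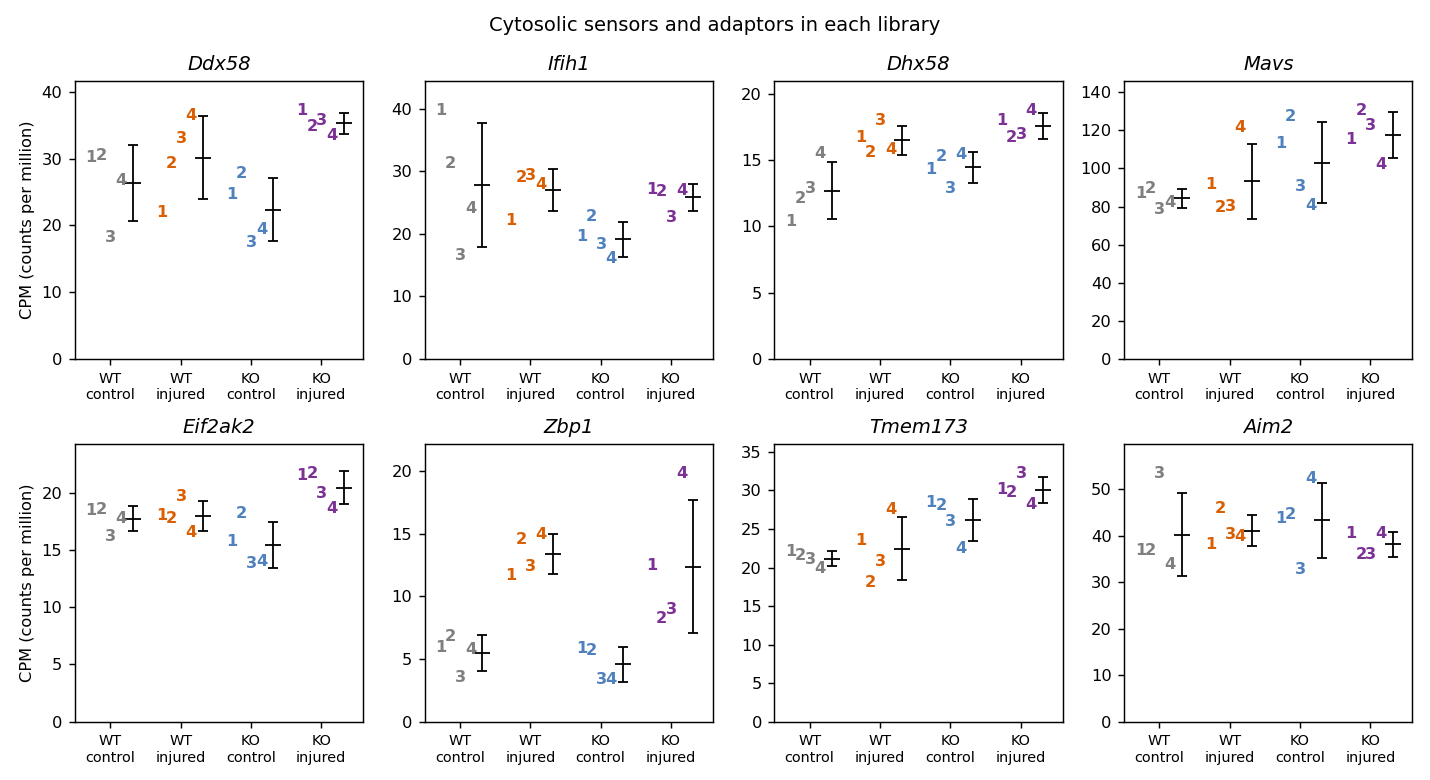
CPM of the 8 genes in each of the 16 libraries, 1 panel per gene, with the numerals giving the library's number within its group on a linear axis from 0. Zbp1 and Dhx58 are the panels in which every injured library lies above every control; in several other panels controls 3 and 4 lie below controls 1 and 2.

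Dhx58, which codes for LGP2, showed a small shift of the same direction. Dhx58 (ENSMUSG00000017830, chromosome 11, 100694884 to 100704271, minus strand) was at 10.4, 12.1, 12.8 and 15.5 CPM in WT controls and 16.7, 15.6, 18.0 and 15.8 CPM in WT injured libraries. In TLR3-KO it was at 14.3, 15.3, 12.9 and 15.4 CPM in controls and 18.0, 16.7, 16.9 and 18.7 CPM after pneumonia. The lowest injured library (15.55 CPM) lay just above the highest control (15.51 CPM), so here too all 8 injured libraries were above all 8 controls. Zbp1 and Dhx58 were the 2 members with that separation, which 37 of all tested genes (0.297%) had. The averaged log2 fold change of Dhx58 was 0.24 (SE 0.07, adjusted p = 0.0977 by edgeR), and with DESeq2, which called 6.22% of all tested genes, it passed (adjusted p = 0.0269). It also passed with controls 3 and 4 only (0.24, adjusted p = 0.0481), where 27.9% of tested genes did, and not with controls 1 and 2 only (0.26, adjusted p = 0.0517) or without the libraries with Xist (0.25, adjusted p = 0.207). By genotype it was 0.27 in WT (SE 0.11, adjusted p = 0.378) and 0.21 in TLR3-KO (SE 0.11, adjusted p = 0.224, edgeR). With controls 1 and 2 only, where 13.5% of tested genes passed in WT, the WT value was 0.37 and passed (adjusted p = 0.0456), and with controls 3 and 4 only it was 0.18 (adjusted p = 0.531).

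Ddx58, the RIG-I gene, was higher after pneumonia in TLR3-KO without overlap, but not past the adjusted threshold. Ddx58 (ENSMUSG00000040296, chromosome 4, 40203773 to 40239828, minus strand) was at 24.6, 27.8, 17.5 and 19.5 CPM in TLR3-KO controls. The TLR3-KO injured libraries had 37.1, 34.7, 35.7 and 33.4 CPM. All 4 lay above every control, and their spread was narrow, with a mean of 35.3 ± 1.57 CPM (SD, n = 4) against 22.3 ± 4.72 (SD, n = 4). The log2 fold change was 0.58 (SE 0.20, adjusted p = 0.117 by edgeR). In WT the groups overlapped, with 30.2, 30.4, 18.2 and 26.7 CPM in controls and 21.9, 29.2, 33.0 and 36.4 CPM after pneumonia, and the log2 fold change was 0.07 (SE 0.20, adjusted p = 0.920). The WT value turned to -0.19 with controls 1 and 2 only, and to -0.08 without WT control 3 and -0.05 without WT injured 4. In TLR3-KO the value was 0.32 with controls 1 and 2 only (adjusted p = 0.324) and 0.89 without the libraries with Xist (adjusted p = 0.132). It passed without control 2 (0.71, adjusted p = 0.0476), where 10.2% of tested genes did, and with controls 3 and 4 only (0.92, adjusted p = 0.00442), where 33.1% did.

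Ifih1, the MDA5 gene, had the widest relative spread of the 8 among the WT controls (coefficient of variation 35.5%). Ifih1 (ENSMUSG00000026896, chromosome 2, 62595798 to 62646255, minus strand) was at 39.7, 31.3, 16.5 and 24.0 CPM in WT controls and 22.1, 29.0, 29.4 and 27.9 CPM in WT injured libraries. The controls therefore lay on both sides of all 4 injured libraries, and the log2 fold change was -0.17 (SE 0.22, adjusted p = 0.799 by edgeR). It was -0.57 with controls 1 and 2 only (adjusted p = 0.0218, beside 13.5% of tested genes called) and 0.38 with controls 3 and 4 only (adjusted p = 0.289), so the direction depended on which WT controls were used. TLR3-KO libraries had 19.6, 22.7, 18.2 and 16.01 CPM in controls and 27.01, 26.7, 22.7 and 26.9 CPM after pneumonia (0.36, SE 0.22, adjusted p = 0.324). One injured library, number 3, touched the range of the controls. With controls 1 and 2 only this response was 0.18 (adjusted p = 0.535), with controls 3 and 4 only 0.58 (adjusted p = 0.0185) and without the libraries with Xist 0.72 (adjusted p = 0.240). TLR3-KO controls were lower than WT controls by a log2 fold change of -0.63 (SE 0.22, adjusted p = 0.152), with overlap. That difference passed without WT control 3 (-0.82, adjusted p = 0.0381), beside 3.44% of tested genes, and with controls 1 and 2 only (-0.84, adjusted p = 0.0256), beside 1.92%. It was -0.31 with controls 3 and 4 only (adjusted p = 0.479) and -0.99 without the libraries with Xist (adjusted p = 0.270).

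Eif2ak2, the PKR gene, had the lowest p of the 8 for a difference between the genotypes' responses, with no call. Eif2ak2 (ENSMUSG00000024079, chromosome 17, 78852564 to 78882573, minus strand) was at 18.5, 18.5, 16.2 and 17.8 CPM in WT controls and 18.0, 17.7, 19.7 and 16.5 CPM in WT injured libraries, 2 overlapping ranges. In TLR3-KO it was at 15.7, 18.2, 13.8 and 14.03 CPM in controls and 21.5, 21.7, 19.9 and 18.6 CPM after pneumonia, without overlap. The log2 fold change was -0.10 in WT (SE 0.12, adjusted p = 0.795) and 0.33 in TLR3-KO (SE 0.12, adjusted p = 0.133, edgeR). The responses differed by 0.43 (SE 0.17, adjusted p = 0.246 by edgeR). Across all 8 genes 0 passed the adjusted threshold for a difference between the responses by edgeR, DESeq2 or limma voom. Of all tested genes 0.0%, 0.787% and 0.0% passed by these 3 methods. Unadjusted, 1 of 8 members was under 0.05, beside 17.8% of all tested genes. In TLR3-KO the response of Eif2ak2 was 0.16 with controls 1 and 2 only (adjusted p = 0.482) and 0.58 without the libraries with Xist (adjusted p = 0.113). It passed without control 2 (0.43, adjusted p = 0.0438) and with controls 3 and 4 only (0.54, adjusted p = 0.00595), settings in which 10.2% and 33.1% of tested genes passed.

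With Zbp1 and Dhx58, the genes Ddx58 and Eif2ak2 made 4 of 8 members whose injured libraries all lay above the controls in TLR3-KO, where 11.2% of tested genes did so. In WT it was 2 of 8 members, where 3.83% of tested genes did. The median log2 fold change of the 8 was 0.27 in TLR3-KO, beside -0.01 over all tested genes, and 0.0013 in WT, beside 0.0097. In TLR3-KO 3 of 8 members, Zbp1, Ddx58 and Eif2ak2, were under an unadjusted p of 0.05, as were 24.0% of all tested genes.

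**Figure D2:**
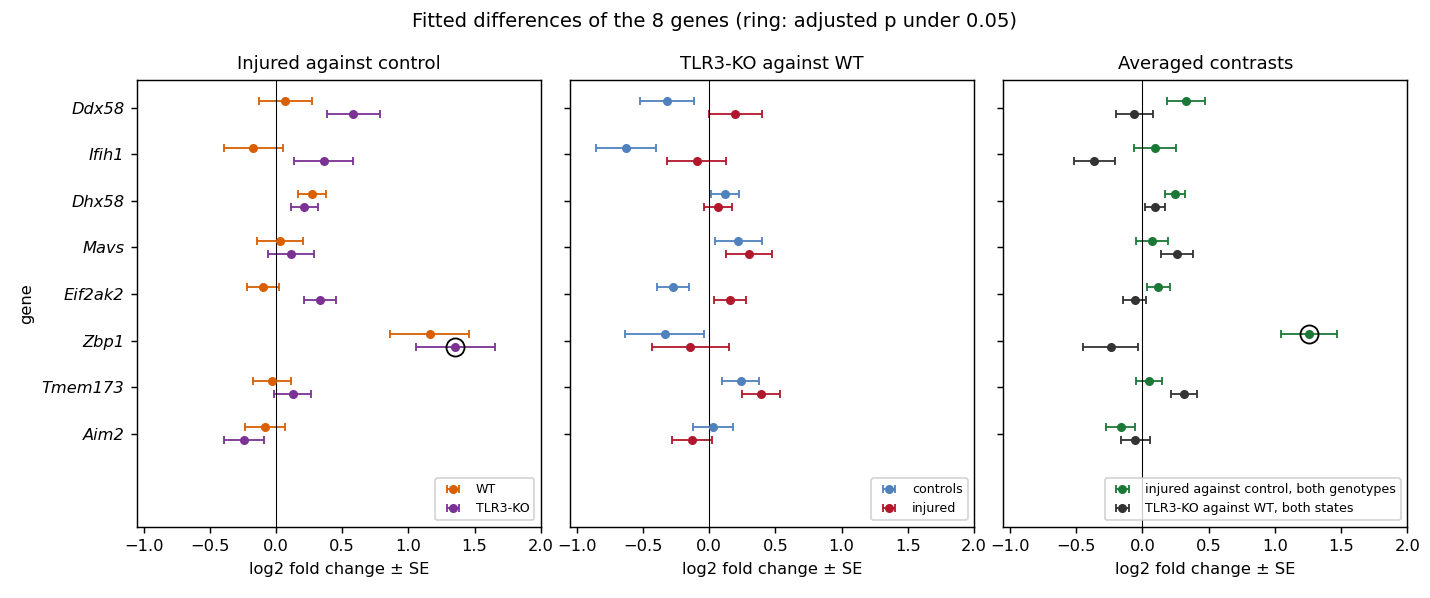
Fitted log2 fold changes of the 8 genes with their SE as bars, for injured against control in each genotype (left), TLR3-KO against WT in each state (middle) and the averages of both (right), with a ring on values past the adjusted threshold. Zbp1 carries both rings, at 1.35 in TLR3-KO and 1.26 in the average, and Tmem173, Mavs and Dhx58 lie to the right of 0 in all 3 genotype comparisons.

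Mavs, the adaptor of RIG-I and MDA5, did not respond detectably to pneumonia. Mavs (ENSMUSG00000037523, chromosome 2, 131234063 to 131248025, plus strand) was at 86.9, 89.7, 78.5 and 81.9 CPM in WT controls and 91.6, 79.6, 80.2 and 121 CPM in WT injured libraries. TLR3-KO controls had 113, 127, 90.8 and 80.7 CPM and TLR3-KO injured libraries 115, 130, 122 and 102 CPM. WT injured 4 stood above the other WT libraries, and the TLR3-KO libraries reached from the WT level to above it. The response was 0.03 in WT (SE 0.17, adjusted p = 0.960) and 0.11 in TLR3-KO (SE 0.17, adjusted p = 0.706, edgeR). In TLR3-KO it was -0.15 with controls 1 and 2 only, 0.44 with controls 3 and 4 only and 0.57 without the libraries with Xist, with adjusted p-values of 0.659, 0.0725 and 0.168. Averaged over both states, Mavs was 0.26 higher in TLR3-KO on the log2 scale (SE 0.12, adjusted p = 0.274). Without the 3 libraries with Xist the difference in controls went from 0.22 to -0.24 (adjusted p = 0.559), carried by the 1 remaining control.

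Tmem173, which codes for STING, was the member whose genotypes did not overlap in either state. Tmem173 (ENSMUSG00000024349, chromosome 18, 35733679 to 35740554, minus strand) was at 22.1, 21.5, 21.1 and 19.8 CPM in WT controls and 28.4, 27.99, 25.9 and 22.4 CPM in TLR3-KO controls. After pneumonia it was at 23.4, 18.0, 20.7 and 27.6 CPM in WT and 30.1, 29.7, 32.2 and 28.2 CPM in TLR3-KO. Every TLR3-KO library was above every WT library of its state, as were those of 5.92% of tested genes in controls and 9.14% after pneumonia. The log2 fold change was 0.24 in controls (SE 0.14, adjusted p = 0.358) and 0.39 after pneumonia (SE 0.14, adjusted p = 0.216, edgeR). Averaged over both states it was 0.31 (SE 0.10, adjusted p = 0.113). It passed without WT injured 4 (0.38, adjusted p = 0.0424), where 3.84% of tested genes did. Without the 3 libraries with Xist the difference in controls was -0.09 (adjusted p = 0.821), and with controls 1 and 2 only and controls 3 and 4 only it was 0.28 and 0.17 (adjusted p = 0.367 and 0.687). Pneumonia moved Tmem173 little in either genotype, by -0.03 in WT (SE 0.14, adjusted p = 0.954) and 0.13 in TLR3-KO (SE 0.14, adjusted p = 0.595).

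By edgeR no member passed the adjusted threshold for genotype. In controls it was 0 of 8, beside 0.699% of all tested genes, with 2 members, Ifih1 and Eif2ak2, under an unadjusted p of 0.05 (19.9% of tested genes). After pneumonia it was 0 of 8, beside 0.618%, with 1 member, Tmem173, under an unadjusted p of 0.05 (16.1%). In the average over states it was 0 of 8, beside 2.01%, with 2 members, Ifih1 and Tmem173, under an unadjusted p of 0.05 (18.6%). DESeq2 and limma voom called 0 of 8 in each of these 3 comparisons. Of all tested genes DESeq2 called 6.27%, 3.56% and 6.62% in them, and limma voom 0.859%, 0.578% and 1.93%. The response and genotype comparisons share libraries: TLR3-KO controls enter both the TLR3-KO response and the genotype difference in controls, with opposite signs.

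Aim2, the inflammasome sensor of DNA, showed no difference past the test in any comparison. Aim2 (ENSMUSG00000037860, chromosome 1, 173350879 to 173466040, plus strand) overlaps Cadm3 on the opposite strand, and Cadm3 was at 0 CPM in all libraries. Aim2 was at 36.8, 36.9, 53.4 and 33.9 CPM in WT controls and 38.2, 45.9, 40.2 and 39.9 CPM in WT injured libraries. TLR3-KO controls had 43.7, 44.4, 32.8 and 52.3 CPM and TLR3-KO injured libraries 40.4, 35.9, 35.9 and 40.6 CPM. The injured ranges lay inside the control ranges in both genotypes, and the averaged log2 fold change was -0.17 (SE 0.11, adjusted p = 0.478 by edgeR). It was -0.17 with controls 1 and 2 only, -0.15 with controls 3 and 4 only and -0.25 without the libraries with Xist, with adjusted p-values of 0.146, 0.444 and 0.304.

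Because genes differ in length, levels were compared between genes per kilobase of exon (RPKM, from the union of GENCODE M21 exons). Mavs stood highest, with a mean of 29.7 RPKM over the 16 libraries, at percentile 86.2 of 11231 tested genes with a length. It was followed by Aim2 (11.6 RPKM), Tmem173 (9.10 RPKM), Dhx58 (4.68 RPKM), Ddx58 (4.05 RPKM), Eif2ak2 (3.50 RPKM), Ifih1 (3.06 RPKM) and Zbp1 (2.54 RPKM, percentile 40.3). Group means of Zbp1 were 1.56 and 1.30 RPKM in WT and TLR3-KO controls, below Ifih1 (3.41 and 2.34). After pneumonia they were 3.79 and 3.51 RPKM, above Ifih1 (3.32 and 3.16). The order of neighbours held in all 16 libraries for Mavs above Aim2 and for Tmem173 above Dhx58. The other neighbours traded places in some libraries: Aim2 was above Tmem173 in 13 of 16, Dhx58 above Ddx58 in 13, Ddx58 above Eif2ak2 in 13, Eif2ak2 above Ifih1 in 12, and Ifih1 above Zbp1 in 11. The adaptor Mavs was thus more abundant per length than the helicases that signal through it, in every library.

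How the members varied together across the 16 libraries is given as Pearson's r of log2(CPM + 0.5) and as a description, since the libraries share groups and the split of the controls. Mavs and Tmem173 had the highest r, 0.904, and 0.847 after the group means were removed. Ddx58 had an r of 0.805 with Eif2ak2, 0.75 with Ifih1 and 0.745 with Zbp1, and within groups 0.591, 0.784 and 0.588. The highest r of Dhx58 was 0.633, with Zbp1, and 0.126 within groups. Aim2 had a negative r with 6 of the other 7. Of all tested genes, those most like Zbp1 were Ly6i (0.914), Ifit1 (0.911) and Irf1 (0.907). Among those most like Ddx58 were C3 (0.943) and Vprbp (0.942), and most like Ifih1 were Nod2 (0.936), Lrrc8c (0.915) and Clic4 (0.909). For Dhx58 they were Il16 (0.897), Agxt2l2 (0.895) and Gm6116 (0.892), and for Eif2ak2 Mapk6 (0.933), Yipf6 (0.931) and Gm505 (0.909). For Mavs they were Cnksr3 (0.969), X99384 (0.968) and Scfd2 (0.965), and for Tmem173 Papss1 (0.963), Egln1 (0.948) and Selenbp1 (0.944). Aim2 had no close match, its highest r being 0.757 with Esrra, then Plscr1 (0.751) and Rapgefl1 (0.745).

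The sensors were then set beside the genes that work with them: 115 genes of the RIG-I and MAVS route, the cGAS and STING route, the PKR and OAS route, ZBP1-linked cell death, the AIM2 inflammasome and the type I interferon loop. Of these, 110 passed the filter on low counts. Ifna1 and Ifna2 had no count, Ifna4 had 1 and Ifnb1 had 14 counts over all 16 libraries, so the interferons themselves were near or below detection. Averaged over both genotypes, 13 of the 110 rose after pneumonia and 1 fell by edgeR, beside 2.34% of all tested genes called and 1.35% called as higher. Without the 3 libraries with Xist 0 of the 110 passed, beside 0.578% of all tested genes. With controls 1 and 2 only 16 rose and 7 fell, beside 12.4% called, and with controls 3 and 4 only 32 rose and 16 fell, beside 27.9% called. DESeq2 called 15 as higher and limma voom 7, beside 3.11% and 0.988% of all tested genes, and without 1 library at a time edgeR called 8 to 13. Genes of the Ifit and Oas families have close paralogs, and how the counting split their shared reads is not given in the sources used here.

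In the interferon loop 4 of 14 tested genes rose: Ifit1, Ifit2 and Ifit3, which bind foreign RNA and block its translation, and Usp18, which restrains the interferon receptor. Ifit1 was at 1.45 to 6.89 CPM in WT controls and 7.04, 21.1, 27.5 and 12.95 CPM in WT injured libraries. In TLR3-KO it was at 1.65 to 2.23 CPM in controls and at 23.2, 3.55, 8.19 and 46.5 CPM after pneumonia. The averaged log2 fold change of Ifit1 was 2.54 (SE 0.47, adjusted p = 0.0130 by edgeR), and TLR3-KO injured libraries 1 and 4, which were highest for Ifit1, were also highest for Zbp1. In the PKR and OAS list 3 of 22 tested genes rose: Oas2 by 3.20, Oas3 by 2.27 and Oasl2 by 2.73 on the log2 scale, with adjusted p-values of 0.0129, 0.0132 and 0.00866. OAS proteins make the messenger that activates RNase L. The median of the interferon loop was 0.75 and that of the PKR and OAS list 0.05, beside -0.0013 over all tested genes.

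Near the RNA sensors, 4 of 31 tested genes of the RIG-I and MAVS list rose in the average. They were Ddx60 (1.38, adjusted p = 0.00912), a helicase linked to RIG-I signalling, and Irf7 (1.33, adjusted p = 0.0450), the transcription factor that amplifies interferon. The others were Trim25 (0.43, adjusted p = 0.0355), which activates RIG-I, and Zc3hav1 (0.35, adjusted p = 0.0203), an antiviral RNA-binding protein. Of the 16 fits without 1 library, Ddx60 passed in 16, Zc3hav1 in 13, Irf7 in 5 and Trim25 in 3. With the replicate block Ddx60 and Zc3hav1 passed, and Irf7 and Trim25 did not, beside 1.77% of all tested genes called. Zc3hav1 was lost without WT injured 3 or TLR3-KO injured 2 or 3. Irf7 was kept without WT control 4, WT injured 1, TLR3-KO control 3 or TLR3-KO injured 2 or 3, and Trim25 without WT injured 2 or 4 or TLR3-KO control 2. In the cell death list 1 of 7 rose, Mlkl (0.45, SE 0.11, adjusted p = 0.0496 by edgeR), the pore-forming executor downstream of ZBP1. Mlkl passed in 2 of the 16 fits without 1 library, those without WT control 4 and without WT injured 1, and in 4 of 10 other settings. Ripk3, the kinase between them, had 0.19 (SE 0.09, adjusted p = 0.320). In the AIM2 list 1 of 9 rose, the transcription factor Irf1 (0.67, SE 0.15, adjusted p = 0.0260), which passed in 10 of the 16 and was lost without WT injured 3 or 4, TLR3-KO control 3 or 4, or TLR3-KO injured 1 or 4. In the cGAS and STING list 0 of 27 rose and 1 fell, Insig1 (-0.41, SE 0.08, adjusted p = 0.0153), which is best known as a regulator of sterol synthesis. Among genes of low p that did not pass, the guanylate-binding protein gene Gbp5 had 2.55 (SE 0.67, adjusted p = 0.0571), Ifi203 0.68 (SE 0.23, adjusted p = 0.136) and the death adaptor Fadd -0.25 (SE 0.08, adjusted p = 0.101). The cGAS gene, listed as E330016A19Rik and named here for its role, was at 0.17 (SE 0.10, adjusted p = 0.406).

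**Figure D3:**
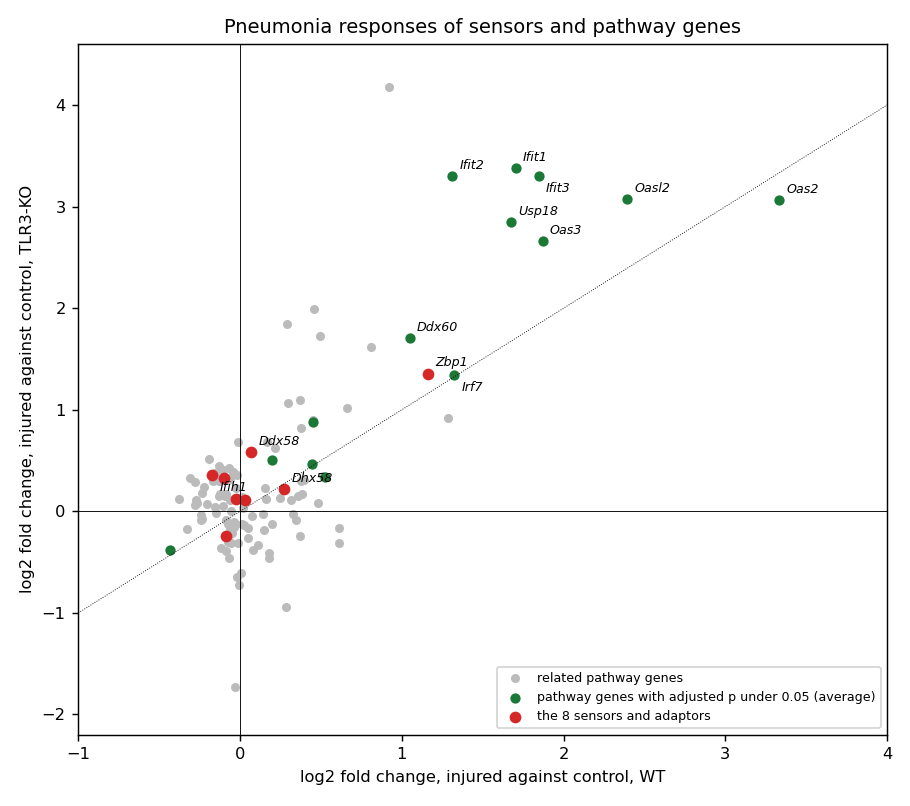
Log2 fold change after pneumonia in WT (horizontal) and TLR3-KO (vertical) of the 8 sensors (red), the pathway genes past the adjusted threshold in the average (green) and the other pathway genes (grey), with equal values on the dotted line. Zbp1 lies with Irf7 and Ddx60 at 1.16 in WT and 1.35 in TLR3-KO, below Ifit1, Ifit2, Ifit3, Oas2, Oas3, Oasl2 and Usp18, and the other 7 sensors lie between -0.25 and 0.58 on both axes.

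By genotype, 0 of the 110 pathway genes passed after pneumonia in WT, beside 0.0161% of all tested genes. In TLR3-KO 10 rose and 1 fell, beside 1.54% of all tested genes called and 0.899% called as higher: Ddx60, Traf6, Zc3hav1, Oas3, Oasl2, Irf1, Ifit1, Ifit2, Ifit3 and Usp18 rose, and Atf4, the stress factor downstream of PKR, fell by 0.65 on the log2 scale (SE 0.15, adjusted p = 0.0474 by edgeR). Of these 11, 0 remained past the threshold with the replicate block or with controls 1 and 2 only, where 0.0883% and 0.658% of all tested genes were called. The same held without any 1 of WT control 2, TLR3-KO controls 1, 3 and 4, and TLR3-KO injured 1, 3 and 4. Those fits called 0 to 31 of the 12455 tested genes, against 192 in the main fit. The fit without the libraries with Xist leaves 1 TLR3-KO control and is not counted here. DESeq2 called 16 as higher and 4 as lower in TLR3-KO, and limma voom 2 as higher, beside 8.28% and 0.851% of all tested genes called. No pathway gene passed the test of the difference between the responses, so a response particular to TLR3-KO was not shown. Between genotypes 3 of 110 pathway genes were lower in TLR3-KO averaged over both states, beside 2.01% of all tested genes called. Casp1, the protease of the AIM2 inflammasome, was at 82.7, 90.4, 98.3 and 105 CPM in WT controls and 68.2, 67.8, 86.2 and 98.6 CPM in TLR3-KO controls. After pneumonia it was at 89.9 to 112 CPM in WT and 63.1 to 71.8 CPM in TLR3-KO, without overlap. The averaged log2 fold change of Casp1 was -0.46 (SE 0.07, adjusted p = 0.00443), and after pneumonia it was -0.61 (SE 0.10, adjusted p = 0.0171, edgeR). Tbk1, the kinase downstream of both MAVS and STING, was at -0.29 (SE 0.07, adjusted p = 0.0359), and Tax1bp1, an adaptor that restrains MAVS signalling, at -0.34 (SE 0.07, adjusted p = 0.0239). Of the 16 fits without 1 library, Casp1 passed in 16, Tax1bp1 in 12 and Tbk1 in 5. With the replicate block Casp1 and Tax1bp1 passed and Tbk1 did not, beside 1.25% of all tested genes called. Tax1bp1 was lost without WT injured 2, TLR3-KO control 1 or TLR3-KO injured 1 or 2, and Tbk1 was kept without WT control 3, WT injured 1 or 4, or TLR3-KO control 2 or 4. After pneumonia alone, Casp1 passed in 11 and was lost without WT injured 2 or 3 or TLR3-KO injured 1, 2 or 3. It was also lost there with the replicate block, beside 0.169% of all tested genes called. Without the libraries with Xist 0 of the 3 passed. Ripk3 had the opposite sign, 0.31 (SE 0.09, adjusted p = 0.0867), as had Dnase2a (0.23) and Oas1c (0.60), while Cflar (-0.51), Gbp2 (-0.91), Ppp1r15a (-0.34), Ifnar1 (-0.22) and Jak1 (-0.31) were negative. None of these 8 passed, with adjusted p-values of 0.0867 to 0.211.

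Among markers of other cells, 2 of 7 tested neutrophil markers passed the test in the averaged pneumonia comparison. In the erythroid, alveolar epithelium, T cell, B cell and dendritic cell or monocyte lists 0 did. The summed level of the 11 neutrophil markers was 47.2 to 84.4 CPM in WT controls and 82.0 to 276 CPM in WT injured libraries. In TLR3-KO it was 63.4 to 93.4 CPM in controls and 112 to 186 CPM after pneumonia. All 7 tested markers had a positive averaged fold change, and S100a8 and Csf3r passed the test. Of the granule genes in that list Elane had no count in 16 libraries, Camp none in 13, Mpo none in 11 and Ngp none in 8, while Ltf (0.295 to 4.83 CPM) and Mmp8 (16.7 to 51.8 CPM) had counts in all 16. Erythroid markers summed to 11.4 to 151 CPM in WT controls and 331 to 710 CPM in WT injured libraries, and to 41.4 to 495 and 73.8 to 200 CPM in TLR3-KO. Alveolar epithelium markers summed to 129 to 170 CPM in TLR3-KO controls and 145 to 205 CPM in TLR3-KO injured libraries. In WT they summed to 81.4 to 154 and 87.6 to 119 CPM. Of these 10 markers 5 had a positive averaged fold change, and 0 passed the test in the average or in TLR3-KO. Their log2 fold changes in TLR3-KO ran from -1.47 (Scgb1a1) to 1.62 (Sftpd), with the lowest adjusted p for Sftpb (1.56, adjusted p = 0.0532 by edgeR). Of the T cell markers 0 of 9 tested and of the B cell markers 0 of 5 had a positive averaged fold change, and 0 passed the test. Of the dendritic cell and monocyte markers 4 of 8 tested had a positive one, and 0 passed. Of the 12 alveolar macrophage markers 5 had a positive averaged fold change. Only Cd68 passed, as lower (-0.28, adjusted p = 0.0393 by edgeR). The part of these cells in the levels of Zbp1 and the pathway genes was not tested, and in RNA from a mixed sample, fewer cells of a type and less RNA per cell cannot be told apart.

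**Figure D4:**
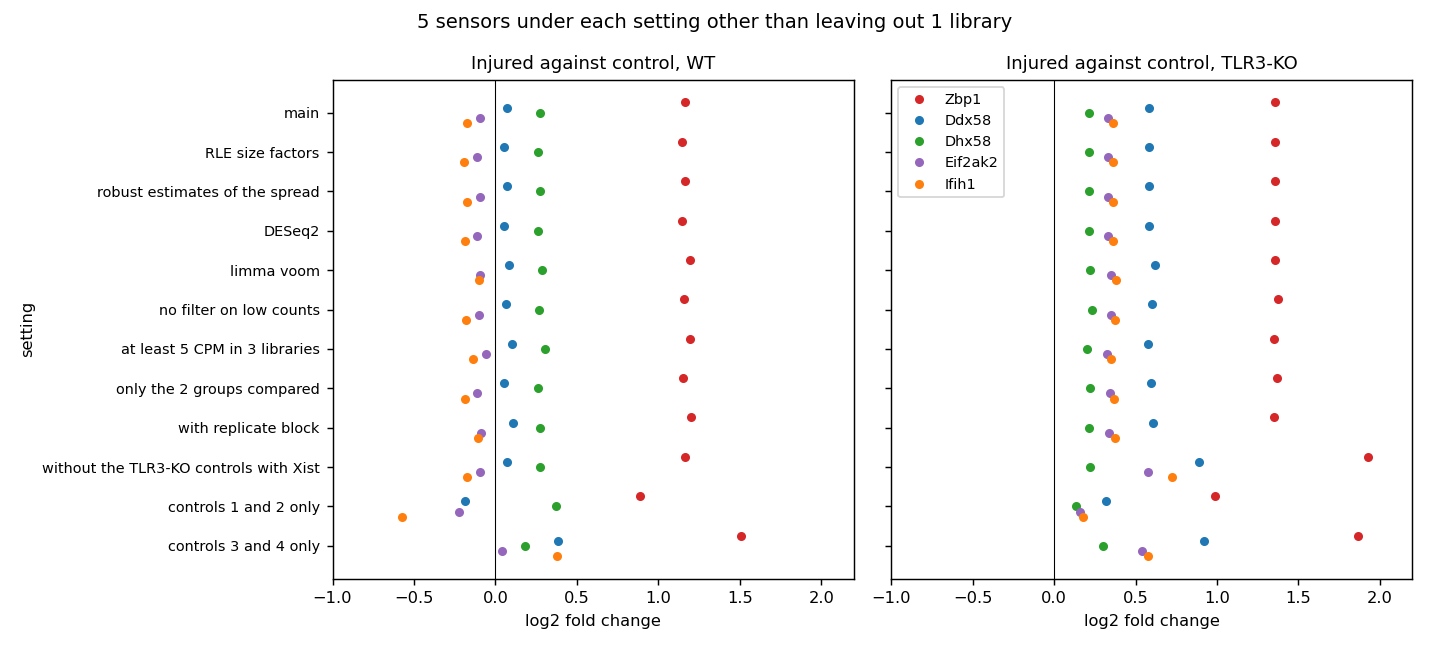
Log2 fold change after pneumonia of Zbp1, Ddx58, Dhx58, Eif2ak2 and Ifih1 in WT (left) and TLR3-KO (right) under each way of fitting, 1 line per setting. Zbp1 stays between 0.89 and 1.51 in WT and between 0.99 and 1.93 in TLR3-KO, while Ifih1 in WT moves from -0.57 with controls 1 and 2 to 0.38 with controls 3 and 4.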

How the data were processed

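Per the labels' protocols, TruSeq mRNA libraries of lavage macrophages were sequenced as paired reads. Per the submitters' processing notes, FastQC 0.11.3, TopHat2 2.0.13 with Bowtie2 2.2.1 and Cuffdiff 2.1.1 were used with mm10. The table deposited by the authors holds raw HTSeq counts per gene symbol. The strand setting and annotation of the counting are not given in the sources used here.

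Genes were filtered with filterByExpr (minimum count 10), which removed 10704. Counts were scaled by TMM and fitted with edgeR 4.0.16 (quasi-likelihood, 4 groups, R 4.3.3), with Benjamini-Hochberg adjustment over 12455 genes and a threshold of 0.05. CPM values use raw library totals. The SE is the size of the log2 fold change over the square root of F. The fit was also run on simulated data, and the outcome is not given here. No 2 libraries of a group were copies. Alternatives were DESeq2 1.42.0, limma 3.58.1 voom, other scalings and filters, a replicate block and left-out libraries. Same-numbered libraries deviated together between the control groups (correlations 0.597 to 0.626), and 6 of 8 libraries correlated best with their own number. Controls 1 and 2 also differed from controls 3 and 4 in both genotypes, and the labels give no pairing. Whether the numbers mark pairs was not tested, and the main fit used none. In each other comparison at least 1 number had a negative correlation, so no pairing was assumed.

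Named pathway genes were those called in a comparison and, per list, the 2 of lowest p in each averaged comparison, and for each member the 3 genes of highest r, of which 1 is not reported here. The members and lists were chosen with earlier results of these data known. Protein sequences were not used here.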

Additional observations from a re-analysis of the deposited data

Results flagged for a closer look

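Of 32 groups of 4 libraries (8 genes in 4 groups), 2 held 1 library far from the other 3, by Dixon's criterion, and chance gives about 1 in 20 such groups. Ifih1 in TLR3-KO injured library 3 was at 22.65 CPM, below the other 3 libraries of its group. Aim2 in WT control 3 was at 53.36 CPM, above the other 3 WT controls.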

How the results depend on the processing

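The members' calls after pneumonia in TLR3-KO and the signs of small fold changes depended on which libraries were used, control and injured. The TLR3-KO calls also depended on the way of fitting, and the cause was not tested. Members called in WT after pneumonia numbered 1 with DESeq2 and 2 with controls 1 and 2 only (Dhx58 and Ifih1), where 1.45% and 13.5% of all tested genes were called. In TLR3-KO they numbered 0 with only the groups compared and with controls 1 and 2 only, where 0.289% and 0.658% of all tested genes were called. They numbered 4 with controls 3 and 4 only (33.1% called), and 0 to 3 without 1 library, the 3 without TLR3-KO control 2 (10.2% called). The fit without the libraries with Xist leaves 1 TLR3-KO control and is not counted here. For TLR3-KO against WT in controls they numbered 0 to 1 without 1 library, the 1 without WT control 3 (3.44% of all tested genes called). With controls 1 and 2 only they numbered 1 (Ifih1, 1.92% called). The averaged response had 2 with DESeq2 and 5 with controls 3 and 4 only (6.22% and 27.9% of all tested genes called). The averaged genotype difference had 0 to 1 without 1 library, the 1 without WT injured 4 (3.84% called). With controls 1 and 2 only it had 1 (Ifih1, 6.03% called).

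Adding the replicate block changed the members called after pneumonia in TLR3-KO from 1 to 0 (Zbp1, adjusted p = 0.0697) and no other count of members. The averaged Zbp1 response stayed past the threshold with it (adjusted p = 0.0143). In the control groups, where same-numbered libraries deviated together, it left 0 members called, as without it, beside 0.249% of all tested genes. In the TLR3-KO response 6 of 8 libraries correlated best with their own number, a hint from the data and not from the design.

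Some log2 fold changes turned sign, none of them past the threshold. With controls 1 and 2 only, the WT response was -0.19 for Ddx58 and -0.099 for Mavs, and the TLR3-KO response -0.15 for Mavs and -0.023 for Tmem173. The averaged response was then -0.20 for Ifih1, -0.12 for Mavs, -0.032 for Eif2ak2 and -0.079 for Tmem173, the difference of responses of Mavs -0.048, and the averaged genotype difference of Aim2 0.016. With controls 3 and 4 only, the WT response was 0.38 for Ifih1, 0.041 for Eif2ak2 and 0.090 for Tmem173. The genotype difference in controls was then -0.076 for Dhx58 and -0.13 for Aim2, its average -0.014 for Dhx58, and the difference of responses of Dhx58 0.12. Without the libraries with Xist, the genotype difference in controls was -0.24 for Mavs and -0.095 for Tmem173, and its average 0.034 for Aim2. With the filter of 5 CPM, the WT response of Tmem173 was 0.0045.

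Without 1 library at a time, the WT response ranged from -0.078 to 0.19 for Ddx58, -0.36 to 0.079 for Ifih1, -0.13 to 0.086 for Mavs, -0.15 to 0.044 for Tmem173 and -0.19 to 0.069 for Aim2. The TLR3-KO response of Mavs ranged from -0.015 to 0.23. The averaged response ranged from -0.0017 to 0.22 for Ifih1, -0.011 to 0.13 for Mavs and -0.014 to 0.087 for Tmem173. The difference of responses ranged from -0.12 to 0.0060 for Dhx58, -0.046 to 0.24 for Mavs and -0.12 to 0.38 for Zbp1. The genotype difference ranged from -0.078 to 0.18 for Aim2 in controls, -0.11 to 0.024 for Aim2 in the average and -0.46 to 4.42e-05 for Zbp1 after pneumonia. Counted over members, comparisons and settings, 17 other values came to pass the threshold and 14 ceased to. All 14 were the Zbp1 response in TLR3-KO under different settings. Robust estimates of the spread were chosen after the data were seen.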
